A study of Homo sapiens with 6 samples.

Results

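The genes of the mitochondrial ribosomal proteins were examined in NK-92MI cells with and without transferred mitochondria. A gene was taken when its symbol was MRPL (large subunit) or MRPS (small subunit) followed by a number, with an optional final letter, and when at least 1 probe set of the array named it alone. Pseudogenes, antisense genes and read-through genes were left out. This gave 76 of the 22260 genes measured, with 47 of the large and 29 of the small subunit by symbol, and 795 of the 352859 probe sets of the table. Probe sets are groups of probes for about 1 exon, and 729 of the 795 were distinct, because the 77 entries of MRPS18B held 11 distinct sets of values. A member had a median of 10 distinct probe sets, from 1 for MRPL12 to 22.

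NK-92MI is a human natural killer lymphoma line that makes its own interleukin-2. It served as control in 3 samples, and 3 samples had received 5 µg of mitochondria, isolated from the human line WRL-68, by spinning at 1500 × g for 15 min. Whether the controls of the arrays were spun is not stated, and neither is how long the cells were kept before RNA was taken. Each group is 1 line, and nothing says whether the 3 replicates were separate cultures, so the p-values below measure only the spread between these samples.

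Mitochondria carry their own DNA, which encodes a few core subunits of the respiratory chain and the RNAs of their own ribosome. All proteins of this ribosome are encoded in the nucleus, made in the cytosol and imported. The small subunit reads the mRNA and the large subunit joins the amino acids. Many of the proteins have a counterpart in the bacterial ribosome and the rest were added in the course of mitochondrial evolution. The arrays measured the nuclear mRNAs only, and neither ribosomes nor their products.

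The promoters of 68 of the 76 members were matched in RefSeq (GRCh38.p14), each as 250 bases before to 50 bases after the gene's start. Those of 4 members are shown because the results below turn on these genes: MRPS33 and MRPL38 were the members that fell, MRPL46 shares a promoter region with another member, and MRPS30 hardly differed. They lie on the minus strand at chr7:141014630-141014929 (MRPS33), chr17:75904835-75905134 (MRPL38) and chr15:88467339-88467638 (MRPL46), and on the plus strand at chr5:44808697-44808996 (MRPS30). Capitals mark exact matches to the motif of the ETS factor GABP (CCGGAAGT, or ACTTCCGG on the other strand), the core motif of NRF1 (CGCATGCG) or the motif of YY1 (AAGATGGCG), factors known for binding nuclear genes of mitochondrial proteins.
MRPS33: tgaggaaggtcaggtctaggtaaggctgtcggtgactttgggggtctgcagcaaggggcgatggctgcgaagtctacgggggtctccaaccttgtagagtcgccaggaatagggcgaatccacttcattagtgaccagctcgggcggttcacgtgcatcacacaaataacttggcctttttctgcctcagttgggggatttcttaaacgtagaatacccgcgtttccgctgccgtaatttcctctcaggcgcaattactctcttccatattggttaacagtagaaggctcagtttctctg
MRPL38: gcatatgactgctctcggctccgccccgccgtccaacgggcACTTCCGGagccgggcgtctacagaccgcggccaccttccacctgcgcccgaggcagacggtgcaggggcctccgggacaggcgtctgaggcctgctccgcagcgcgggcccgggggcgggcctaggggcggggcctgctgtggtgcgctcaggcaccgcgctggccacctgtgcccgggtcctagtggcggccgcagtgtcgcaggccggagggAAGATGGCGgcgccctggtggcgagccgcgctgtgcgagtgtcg
MRPL46: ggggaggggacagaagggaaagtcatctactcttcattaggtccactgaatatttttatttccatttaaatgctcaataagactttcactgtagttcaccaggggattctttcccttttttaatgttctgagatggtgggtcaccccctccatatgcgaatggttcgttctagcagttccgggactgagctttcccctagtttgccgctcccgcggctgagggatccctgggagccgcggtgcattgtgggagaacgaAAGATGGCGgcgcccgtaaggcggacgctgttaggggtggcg
MRPS30: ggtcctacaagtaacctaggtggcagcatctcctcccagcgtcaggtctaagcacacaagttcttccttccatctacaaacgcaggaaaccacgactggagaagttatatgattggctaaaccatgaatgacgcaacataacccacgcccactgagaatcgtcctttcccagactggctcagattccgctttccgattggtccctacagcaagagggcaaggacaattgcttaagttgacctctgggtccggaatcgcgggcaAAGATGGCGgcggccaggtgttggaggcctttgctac

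Each value below is the log2 intensity, as the authors' RMA processing gave it, of the brightest probe set naming the gene, judged by its mean over all 6 arrays. Differences are transfer minus control, and the intensities of different probe sets do not rank genes. The 95th percentile of 367 olfactory receptor genes, taken as background, was 6.59, and 75 of the 76 members had a higher mean, as did 71.9% of all genes. MRPS24, a small subunit protein gene, was the exception, and its values lay at background. Array pairs correlated across genes, which are not independent replicates, at 0.981 to 0.983 between controls, 0.969 to 0.972 after transfer and 0.961 to 0.964 between the groups. All 15 natural killer cell markers were above background, with array means of 10.63 to 10.82 in control and 10.59 to 10.76 after transfer. FCER1G alone among them passed the test (2.61, limma adjusted p = 0.000884), but its second brightest probe set gave −0.47 (adjusted p = 0.441). Of the others, only NCAM1 (0.04) and GNLY (0.32) had positive differences. The rest were negative, down to −0.66 for TYROBP (adjusted p = 0.111), and the array means after transfer include the high value of FCER1G. All 6 hepatocyte markers were above background too, with array means of 7.36 to 7.55 in control and 7.51 to 7.69 after transfer, and all 5 epithelial markers, with 8.02 to 8.28 and 7.90 to 8.16. All 5 T cell markers were above background, and their array means of 7.13 to 7.21 in control and 7.30 to 7.62 after transfer did not overlap. Of 3 measured B cell markers 2 were above background (7.79 to 7.94 and 7.88 to 8.15), and of 4 monocyte markers 1 (6.34 to 6.79 and 6.30 to 6.58), with CD14 and LYZ at background. None of the genes of these 5 lists passed the test, and the part of other cells, or of RNA carried over from the donor line, in the results below was not tested.

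Of the 76 members, MRPS33 and MRPL38 were lower after mitochondrial transfer and none was higher by limma, with p-values adjusted by the Benjamini-Hochberg method over all genes and a threshold of 0.05. Over all 22260 genes, 0.234% were lower and 1.74% higher by this rule. At an unadjusted p under 0.05, 19 members (25%) were lower and 0 higher, where 7.31% of all genes were lower and 10.6% higher. The 3 transfer arrays lay below all 3 control arrays for 25 members (32.9%) and above them for 0, where 11.8% of all genes lay below and 13.9% above, or 14.2% and 15.5% of the genes above background. In this bulk RNA a change in the cells present and a change in RNA per cell cannot be told apart.

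MRPS33 encodes a small subunit protein without a bacterial counterpart. Its log2 intensity was 8.03, 8.07 and 8.28 in the control arrays and 7.35, 6.88 and 6.84 in the transfer arrays. The groups did not overlap, and the geometric mean intensity after transfer was 46.6% of that in control. The difference was −1.10 (standard error 0.18, limma adjusted p = 0.0334). All 7 other probe sets of MRPS33 had negative differences, with a median of −0.68, but 1 of them alone was above background, at −0.97. The call was lost with 5 of the 6 arrays left out in turn, and without transfer replicate 1 the adjusted p was 0.0229. Over all genes, the number called lower fell from 52 to between 1 and 21 in these 5 fits. It was 60 without transfer replicate 1. With the mean of its probe sets MRPS33 differed by −0.71 and did not pass (adjusted p = 0.119).

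MRPL38 encodes a protein of the central protuberance, the crown of the large subunit, and has no bacterial counterpart. Its log2 intensity was 9.74, 9.88 and 9.96 in the control arrays and 9.06, 9.22 and 8.92 in the transfer arrays. The lowest control array was thus above the highest transfer array, and the geometric mean after transfer was 57.5% of that in control. The difference was −0.80 (standard error 0.15, limma adjusted p = 0.0479). Of its 18 other probe sets 15 had negative differences, among them 10 of the 11 above background, whose median was −0.59. The call was lost with each of the 6 arrays left out in turn (adjusted p from 0.0798 to 0.184), with differences from −0.88 to −0.72. With the mean of its probe sets MRPL38 differed by −0.53 and did not pass either (adjusted p = 0.0823).

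MRPL46 and MRPL48, also proteins of the central protuberance, had differences of similar size that did not pass the test. MRPL46 was at 7.99, 8.13 and 7.90 in control and at 7.66, 7.11 and 6.85 after transfer (difference −0.80, limma adjusted p = 0.139), and it passed without transfer replicate 1 (−1.03, adjusted p = 0.0492). Its groups did not overlap, and all 4 other probe sets above background had negative differences. MRPL48 was at 9.08, 8.69 and 9.02 in control and at 8.54, 7.58 and 8.67 after transfer (−0.67, adjusted p = 0.304). Its transfer replicate 3 lay just below the lowest control array, and its second brightest probe set gave 0.17. Of its 14 other probe sets 13 had negative differences (median of the 14 −0.41), among them 2 of the 3 above background.

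Further large subunit genes among the lowest did not pass the test. MRPL20, the counterpart of a protein that Escherichia coli needs to assemble the large subunit, was at 11.02, 11.14 and 11.28 in control and 10.29, 10.63 and 10.57 after transfer (−0.65, limma adjusted p = 0.0984). All its 9 other probe sets were above background with negative differences, from −0.86 to −0.20 and with a median of −0.56. MRPL51, which has no bacterial counterpart, was at 8.80, 9.11 and 9.29 in control and 8.37, 8.51 and 8.44 after transfer (−0.63, adjusted p = 0.127). Neither gene's groups overlapped. MRPL2, a protein next to the site where peptide bonds form, was at 8.97, 8.53 and 9.14 in control and 8.69, 8.31 and 7.49 after transfer (−0.72, adjusted p = 0.306). Here the groups overlapped and transfer replicate 3 lay far below the other 5 arrays.

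**Figure D1:**
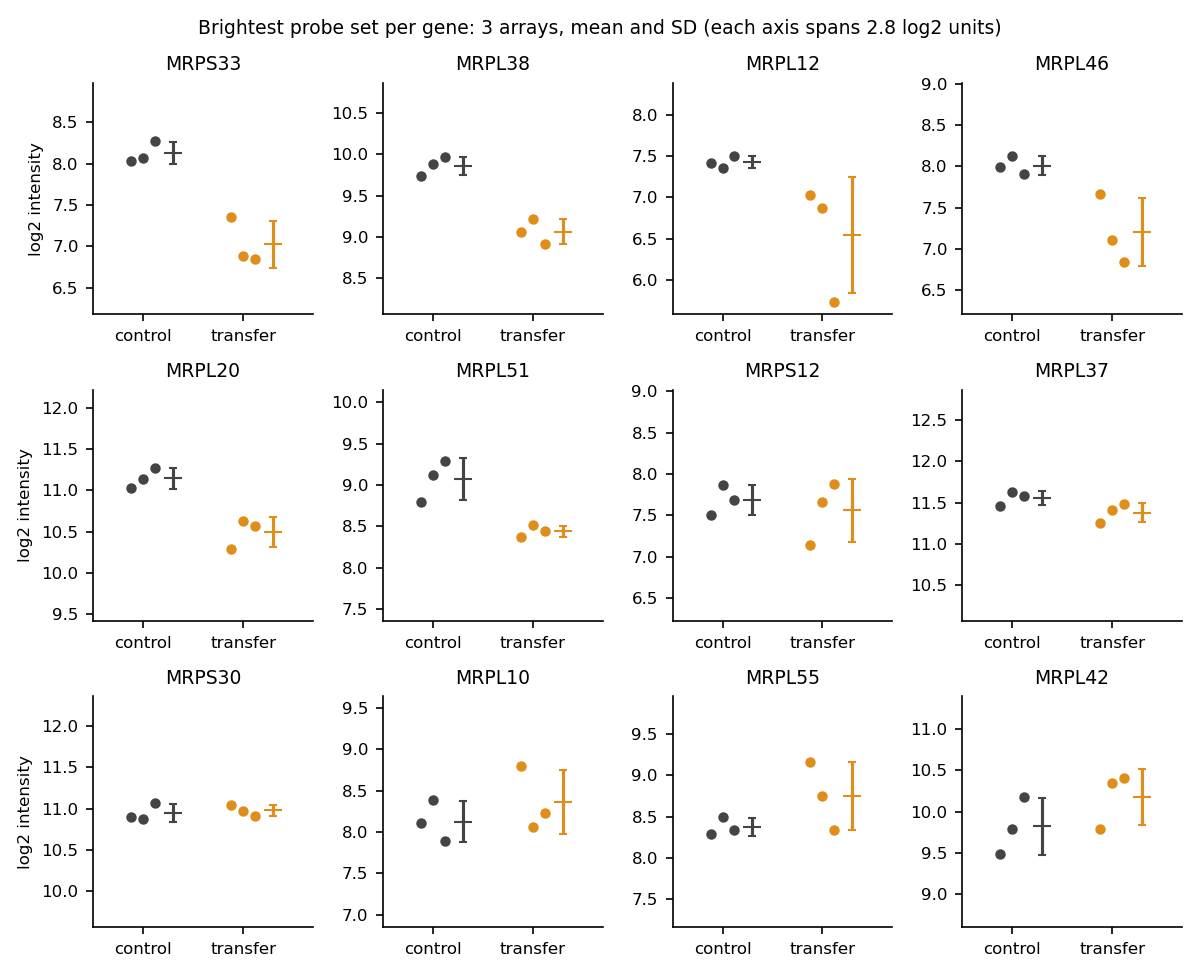
Log2 intensity of the brightest probe set of 12 members on each array (points), with the group mean and SD beside them, for 3 control and 3 transfer arrays. MRPS33, MRPL38, MRPL46, MRPL20 and MRPL51 have no overlap between the groups, MRPL12 is lowest on transfer replicate 3, at 5.73, and MRPS12, MRPS30, MRPL10, MRPL55 and MRPL42 overlap.

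The stalk of the large subunit recruits the translation factors, and its genes had differences of both signs, none of which passed the test. MRPL12, the stalk protein proper, was at 7.42, 7.35 and 7.50 in control and at 7.02, 6.87 and 5.73 after transfer (−0.88, standard error 0.33, limma adjusted p = 0.233). Transfer replicate 3 was at background, without it the difference was −0.48, and no other probe set named MRPL12 alone. MRPL11, at the base of the stalk, was at 8.82, 9.04 and 9.11 in control and 8.07, 8.58 and 8.53 after transfer (−0.60, adjusted p = 0.168), with negative differences on all 4 other probe sets above background. MRPL10, which anchors MRPL12, was at 8.11, 8.38 and 7.89 in control and 8.80, 8.06 and 8.23 after transfer (0.24, adjusted p = 0.633). Its groups overlapped and its second brightest probe set gave −0.58, so its direction depended on the probe set.

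In the small subunit, MRPS12, a protein of the decoding site, was at 7.51, 7.87 and 7.68 in control and 7.14, 7.66 and 7.88 after transfer on its brightest probe set (−0.12, limma adjusted p = 0.805). Its 3 other probe sets above background all had negative differences, of −0.38, −0.88 and −1.48. On the last of them the control arrays were at 7.52, 7.39 and 7.74 and the transfer arrays at 6.54, 5.75 and 5.93. These transfer values were all below the background of 6.59, so this probe set counted as above background only through its controls. With the median of the probe sets above background as the value of each gene, MRPS12 was the only member called (−0.72, limma adjusted p = 0.0322). Of 16006 genes 107 were lower in that fit. That median took in this probe set, and how far the call rests on it was not tested. MRPS21, a small subunit protein of bacterial origin, was at 10.73, 10.77 and 10.69 in control and 10.29, 10.56 and 10.16 after transfer (−0.39, adjusted p = 0.237), with all 5 other probe sets negative. MRPS27, which carries RNA-binding pentatricopeptide repeats, differed by −0.08 (adjusted p = 0.823) with overlapping groups, and by 0.00 after cyclic loess normalization.

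The symbols of MRPS18A and MRPS30 belong to the small subunit, but their proteins sit in the large subunit. MRPS18A, 1 of 3 human relatives of a single bacterial protein, was at 10.40, 10.56 and 10.47 in control and 10.15, 10.09 and 9.98 after transfer (−0.40, limma adjusted p = 0.184), with negative differences on all 6 others. MRPS30 was at 10.90, 10.87 and 11.06 in control and 11.05, 10.97 and 10.91 after transfer (0.03, standard error 0.13, adjusted p = 0.921). The groups overlapped for MRPS30 and not for MRPS18A. MRPS36 carries the symbol as well, but its current name is KGD4 and its protein is a subunit of the 2-oxoglutarate dehydrogenase complex. It was at 8.09, 8.07 and 8.30 in control and 7.27, 7.76 and 7.73 after transfer (−0.57, adjusted p = 0.174).

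Members with the most positive differences did not pass the test either. Among those above background these were MRPL55 (0.37), MRPL42 (0.36), MRPL10 (0.24), MRPL17 (0.23) and MRPL30 (0.22), with limma adjusted p-values of 0.424, 0.489, 0.633, 0.482 and 0.801. The groups overlapped for all 5 large subunit genes. MRPL55 was at 8.29, 8.49 and 8.34 in control and 9.16, 8.74 and 8.34 after transfer, and MRPL42 at 9.49, 9.79 and 10.18 in control and 9.78, 10.34 and 10.40 after transfer. With the median of their probe sets, the differences of MRPL55, MRPL42, MRPL17 and MRPL30 were negative, at −0.13, −0.09, −0.21 and −0.23. MRPS24 had a difference of 0.51 (adjusted p = 0.520) at background.

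**Figure D2:**
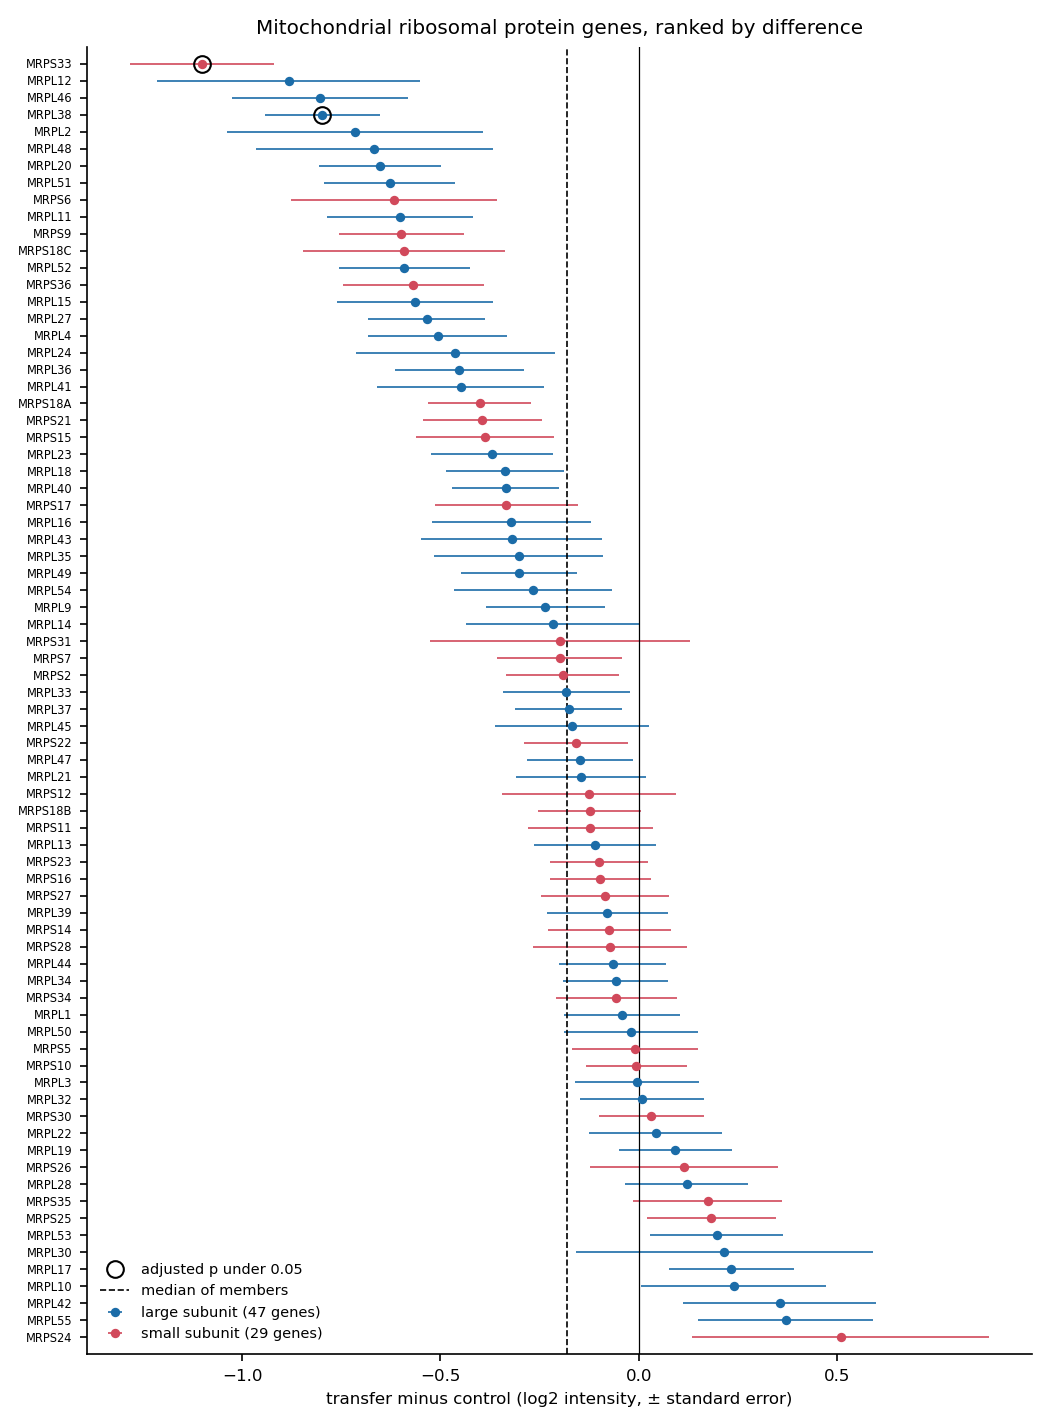
Transfer minus control difference in log2 intensity of the brightest probe set for the 76 members, ordered from lowest to highest, with its standard error. Blue marks the 47 MRPL and red the 29 MRPS genes, rings mark MRPS33 and MRPL38, which passed the test, and the dashed line is the median of −0.18. Most members lie left of 0.

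Over the 76 members, 61 had a negative and 15 a positive difference, with a median of −0.18, quartiles of −0.45 and −0.04, and a range from −1.10 to 0.51. Over all genes 49.4% of the differences were negative and the median was 0.00. With quantile normalization, cyclic loess normalization or centring of each array, 53, 49 and 57 members were negative, while the median of all genes moved to 0.06, 0.07 and 0.05. The members lay below all genes at each level of signal that held more than 1 of them. In 4 bands of mean intensity, from background to 8, 8 to 9, 9 to 10 and 10 to 11, the medians of 12, 26, 20 and 16 members were −0.20, −0.20, −0.25 and −0.09, beside 0.03, 0.01, −0.01 and −0.05 for all genes of the same bands.

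By array, the median deviation of the members from their own means over the 6 arrays was 0.01, 0.09 and 0.21 in the controls and −0.11, −0.03 and −0.17 after transfer. All 3 control medians were thus above all 3 transfer medians, but control replicate 1 and transfer replicate 2 were only 0.04 apart. Genes above background stayed between −0.02 and 0.03 on the same arrays. Control replicate 3 was the highest array for 38 of the 76 members, and transfer replicates 3 and 1 were the lowest for 28 and 24. Without control replicate 3 the median difference of the members was −0.13, and without control replicate 1 it was −0.20. The median SD of a member was 0.144 among controls and 0.200 after transfer, beside 0.187 and 0.236 for all genes.

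**Figure D3:**
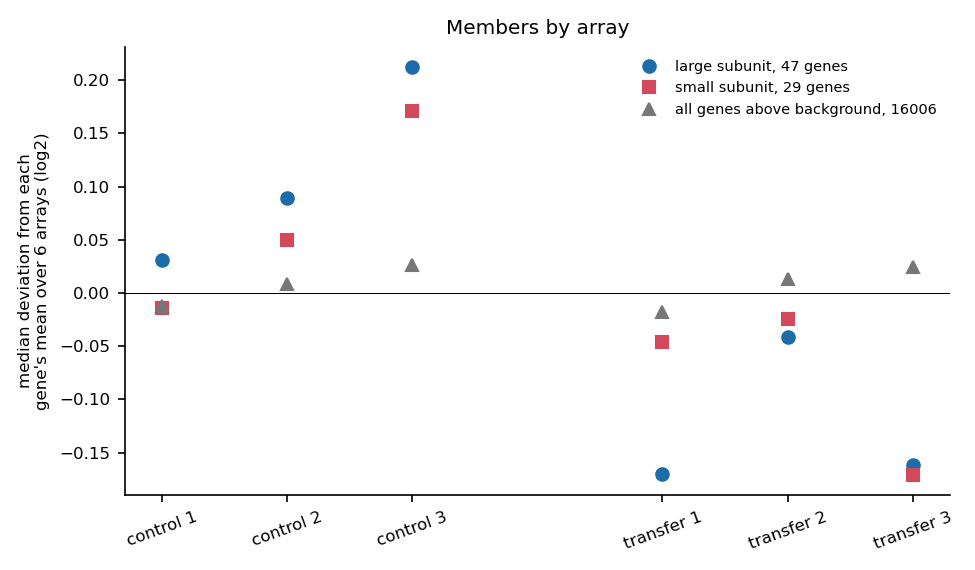
Median deviation of each set of genes from the genes' own means over the 6 arrays (log2), for 3 control and 3 transfer arrays. Circles are the 47 MRPL genes, squares the 29 MRPS genes and triangles the 16006 genes above background, which stay between −0.02 and 0.03 while both subunits are highest on control replicate 3.

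The large subunit genes had a median difference of −0.24, with 37 of 47 negative, and the small subunit genes one of −0.12, with 24 of 29 negative. By limma 1 gene of each subunit was lower and none higher. At an unadjusted p under 0.05, 13 of the 47 large subunit genes (27.7%) and 6 of the 29 small subunit genes (20.7%) were lower, beside 7.31% of all genes. The transfer arrays lay below all control arrays for 17 (36.2%) and 8 (27.6%), beside 11.8% of all genes. By array, the large subunit medians were 0.03, 0.09 and 0.21 in control and −0.17, −0.04 and −0.16 after transfer, and the small subunit medians −0.01, 0.05 and 0.17 in control and −0.05, −0.02 and −0.17 after transfer. The subunits differed most on transfer replicate 1, and the gap of −0.11 between their medians was −0.04 without it. Placing MRPS18A and MRPS30 in the large subunit and leaving MRPS36 out gave the same medians, −0.24 and −0.12.

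The gap between the subunits depended on how a gene's value was taken. With each gene's second brightest probe set the medians were −0.25 for the large and −0.25 for the small subunit. With the median over all probe sets of a gene they were −0.23 and −0.26, so the order was turned. With the mean of the probe sets they were −0.27 and −0.21, and with the median of those above background −0.27 and −0.25. Both subunits stayed below the median of all genes in each of these, and no difference between the subunits was shown.

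**Figure D4:**
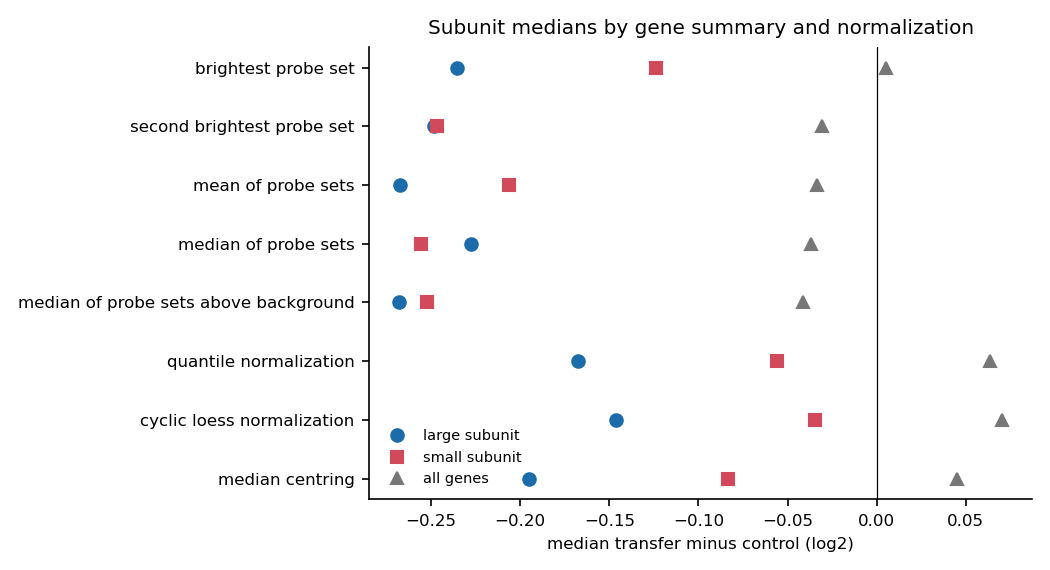
Median transfer minus control difference (log2) of the large subunit genes (circles), the small subunit genes (squares) and all genes (triangles), with 5 ways of taking a gene's value and 3 normalizations applied to the brightest probe sets. The subunits lie 0.11 apart with the brightest probe set and coincide at −0.25 with the second brightest.

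The proteins were also grouped by origin, here with the subunits by structure, so that MRPS30 counted as large. MRPS18A and MRPS18B, classed only as relatives of a bacterial counterpart, and MRPS36 were left out. Large subunit proteins with a bacterial counterpart had a median of −0.20, with 22 of 30 negative, and those without one of −0.28, with 15 of 18 negative. In the small subunit the order was the other way, with a median of −0.16 for the 16 genes with a counterpart, 15 of them negative, and −0.08 for the 9 without, 6 of them negative. Both called genes, MRPS33 and MRPL38, belong to the proteins without a bacterial counterpart. Of 16 small subunit genes with a counterpart MRPS24 alone was positive, at background.

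Single probe sets gave a wider base, although those of a gene share its RNA and are not replicates. Of the 729 distinct probe sets of the members 537 (73.7%) had a negative difference, with a median of −0.24, beside 54.9% and −0.05 for the whole table. None passed the limma test over all 352859 probe sets, of which 0.0034% were lower and 0.0578% higher. At an unadjusted p under 0.05, 85 (11.7%) were lower and 10 (1.37%) higher, where 5.36% of the whole table were lower and 4.68% higher. Above background, 226 of 290 large subunit probe sets (median −0.27) and 149 of 198 small subunit probe sets (median −0.18) had negative differences, beside 61.3% and −0.10 for all distinct probe sets above background that name 1 gene. Of the 71 members that had other probe sets above background than the brightest, 61 had a negative median over these.

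MRPL37 and MRPL34 had lower median differences on their other probe sets than on the brightest one, and MRPL45 a higher one. MRPL37, a large subunit protein without a bacterial counterpart, differed by only −0.18 (limma adjusted p = 0.537) on its brightest probe set, at 11.46, 11.63 and 11.58 in control and 11.25, 11.41 and 11.48 after transfer. All its 12 other probe sets above background were negative, with a median of −0.42. MRPL34, a small protein of bacterial origin, differed by −0.06 (adjusted p = 0.853) on its brightest probe set, by 0.01 with quantile normalization and 0.03 with cyclic loess, and had −0.43 as the median of its 2 other probe sets above background. MRPL45, which holds the ribosome to the inner membrane, differed by −0.17 (adjusted p = 0.693), and the median of its 4 other probe sets was −0.07.

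Single probe sets also stood apart from the rest of their gene, and the following were picked after their values were seen. MRPS23, a small subunit protein without a bacterial counterpart, had 1 probe set at 7.08, 7.01 and 7.84 in control and at 9.75, 9.66 and 9.45 after transfer. This difference of 2.31 (limma adjusted p = 0.102 over all probe sets) stood against −0.40 to −0.10 for its 6 other probe sets. MRPS10, a protein of bacterial origin in the head of the small subunit, had 1 at 7.24, 7.51 and 7.80 in control and 9.01, 8.95 and 8.91 after transfer (1.44, adjusted p = 0.163), against −0.59 to 0.10 for its 8 others. The groups were far apart on both, and neither gene's brightest probe set showed it. Over probe sets above background alone, MRPS23, MRPS10 and the low probe set of MRPS12 passed (adjusted p = 0.00949, 0.0195 and 0.0459). That of MRPS12 was below background on all transfer arrays and met the filter through its controls only.

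**Figure D5:**
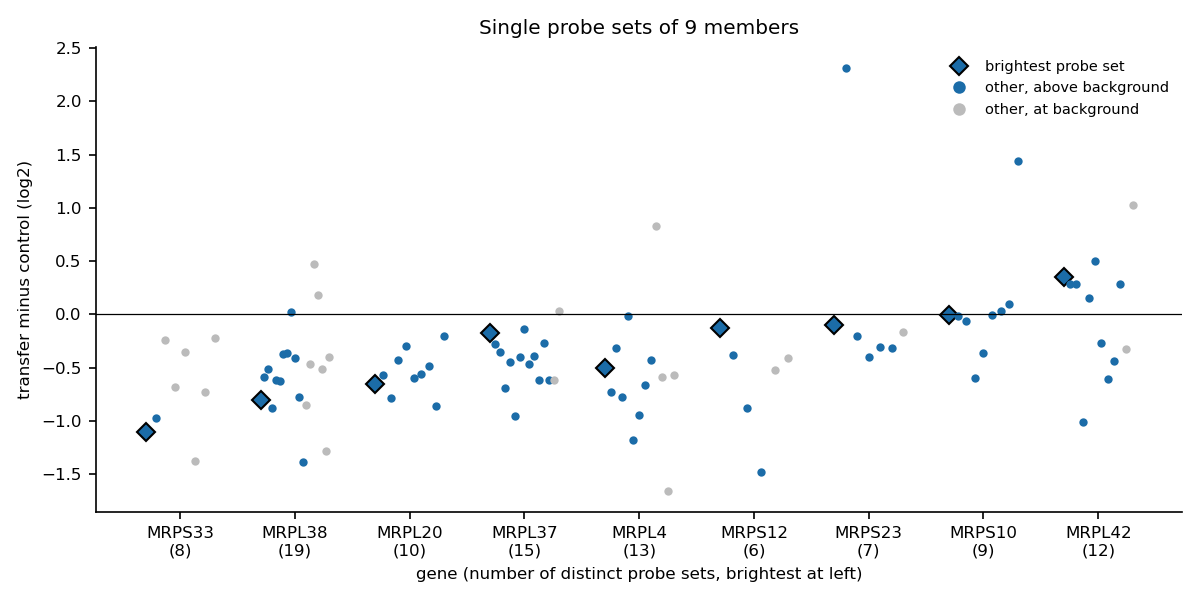
Transfer minus control difference (log2) of every distinct probe set of 9 members, ordered within each gene from the brightest (diamond) at left, with probe sets at background in grey. The 10 probe sets of MRPL20 are all below 0, while MRPS23 and MRPS10 each have 1 probe set, at 2.31 and 1.44, far above their others.

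Proteins of the mitochondrial ribosome that the array annotation lists under other symbols, namely DAP3, CHCHD1, PTCD3, GADD45GIP1 and the genes now called MRPL57 and MRPL58, were measured too. All 6 had negative differences, from −0.20 for DAP3 to −0.03 for MRPL58, with a median of −0.10, and none passed the limma test. MRPL58 was positive with the other normalizations (0.01 to 0.06). With the mean of their probe sets MRPL58 was −0.53 and DAP3 −0.31, and with the median −0.83 and −0.0023. Their order thus depended on the probe sets taken. The 27 measured genes of ribosome assembly, some of which modify or fold its RNA or act as GTPases, had 20 negative differences and a median of −0.27. Of these METTL15 rose and none fell by the adjusted p, where 1.74% of all genes rose and 0.234% fell. At an unadjusted p under 0.05, 6 (22.2%) were lower and 2 (7.41%) higher, beside 7.31% and 10.6% of all genes. METTL15 methylates the RNA of the small subunit and was at 9.05, 8.83 and 8.85 in control and 9.80, 9.78 and 9.55 after transfer (0.80, adjusted p = 0.0464). The call was lost with each array left out in turn, and the median of all probe sets of METTL15 differed by 0.00. TFB1M, which also methylates this RNA, had a difference of 0.44 (adjusted p = 0.271) and is named after its value was seen. The groups did not overlap for 3 assembly genes (11.1%) that were higher, METTL15 and TFB1M among them, and for 9 (33.3%) that were lower. Among all genes these shares were 13.9% and 11.8%. The lower ones included NSUN4 (−0.43, adjusted p = 0.263), also named after its value was seen. The lowest was NGRN, which is needed for the RNA of the large subunit, at 8.97, 9.02 and 9.39 in control and 8.26, 8.43 and 8.80 after transfer (−0.63, adjusted p = 0.176), and it passed with the median of its probe sets above background (−0.89, adjusted p = 0.0132).

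The 17 measured translation factors of mitochondria, with initiation, elongation and release factors among them, had 11 negative differences and a median of −0.07 (0.02 after cyclic loess normalization), and none passed the test. They ranged from −0.61 for SLIRP, which stabilizes mitochondrial mRNA (limma adjusted p = 0.181), to 0.32 for the elongation factor TSFM (adjusted p = 0.392), which was −0.17 with the mean of its probe sets. Genes of the cytosolic ribosome were taken by RPL or RPS symbol where a probe set named them alone. These 55 measured genes had 47 negative differences (85.5%) and a median of −0.20, close to that of the mitochondrial ribosome. As a group they are brighter genes, though RPL13 and RPS12 lay at background. Of all genes with a mean above 11, 64.5% were negative, with a median of −0.08. None of the 55 passed the test. At an unadjusted p under 0.05, 4 (7.27%) were lower and 0 higher, where 7.31% of all genes were lower and 10.6% higher. The groups did not overlap for 10 (18.2%) that were lower and 1 (1.82%) that was higher, beside 11.8% and 13.9% of all genes, and 29.2% and 15.4% of the genes with a mean above 11, while the median level of these 55 genes was 11.89. The lowest was RPL12 at −0.74 (limma adjusted p = 0.125) and the highest RPL31 at 0.35 (adjusted p = 0.362). With the mean of their probe sets RPL12 was −0.22 and RPL31 0.087, and with the median −0.085 and −0.40.

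The promoters were searched for the 3 motifs on both strands, and no match of one motif overlapped a match of another. The YY1 motif was in 13 of the 68 promoters (19.1%), beside 2.66% of 15843 protein-coding and 1.81% of all 27305 promoters of the table. In 10 of them (14.7%) it lay on the strand of the gene within the first 50 bases, as in MRPL38, MRPL46 and MRPS30 at bases 7, 9 and 14, beside 1.74% and 1.05%. The ETS motif was in 11 (16.2%), beside 6.03% and 4.36%, with 9 among 40 large and 2 among 28 small subunit genes. The NRF1 core was in 3 (4.41%), beside 2.77% and 2.13%. At least 1 of these was in 24 members (35.3%), beside 10.7% of protein-coding promoters.

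Set beside the expression values, the 11 members with the ETS motif had a median difference of −0.32, with 10 negative, and the 57 without it −0.18, with 44 negative. Besides MRPL38 they included MRPL20 (−0.65), MRPL51 (−0.63), MRPL52 (−0.59) and MRPL27 (−0.53), and at the other end MRPL53 (0.20), MRPL3 (−0.0045) and MRPS34 (−0.06). The 13 members with the YY1 motif had a median of −0.02, with 8 negative, and the 55 without it −0.19, with 46 negative. They held MRPL46 and MRPL38 at −0.80 as well as MRPL42 at 0.36 and MRPS30 at 0.03. MRPS33, with the lowest difference, had none of the 3 motifs in its window. These letters are a description of the sequence, and binding was not measured.

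Many members start head to head with another gene. A protein-coding gene of the opposite strand started within 1000 bp upstream of 19 of the 68 (27.9%), beside 9.62% of 15843 protein-coding genes. MRPL46 and MRPS11 are partners of each other, which left 17 distinct pairs with both genes measured, and both were negative in 12 of them. Of the 16 measured partners that are not members 13 had negative differences, with a median of −0.18. These 2 members, 1 gene of each subunit, start 320 bp apart and had differences of −0.80 for MRPL46 (limma adjusted p = 0.139) and −0.12 for MRPS11 (adjusted p = 0.725). MRPS12 starts 181 bp from SARS2, the mitochondrial seryl-tRNA synthetase gene, with −0.12 and −0.17. The partner that passed the test was PPP1R10, a nuclear regulator of protein phosphatase 1, at −0.86 (adjusted p = 0.0373) beside −0.12 for MRPS18B, with starts 597 bp apart. PPP1R10 passed in none of the 6 fits with 1 array left out (adjusted p from 0.0624 to 0.164).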

How the data were processed

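Total RNA of 3 control and 3 transfer samples was hybridized to Affymetrix whole-transcript arrays. The deposited values are log2 intensities of exon-level probe sets, which per the labels the authors made with RMA in Affymetrix Power Tools (background correction, quantile normalization and summary of probes). Versions, build and probe filters are not given in the sources used here. No further normalization was applied for the values reported, and array number and signal over background limit the precision.

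Probe sets naming several genes (13116) or none (80519) were left out, 259224 named 1 gene, and each of 22260 genes took the one with the highest mean. Of the symbols 20529 were current, 1726 were updated through RefSeq and 65 were unmatched. AURKAIP1 had no probe set of its own. Groups were compared in limma 3.58.1 (R 4.3.3, lmFit and eBayes, Benjamini-Hochberg over all genes, threshold 0.05). The procedure was tested on simulated data. Large and small subunits were compared by medians and counts without a test.

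Named were members that passed, also with the mean or median of probe sets, the 8 lowest and 5 highest above background, the 3 brightest of each subunit, those of named places in the ribosome, and in each other list those that passed and the extremes. Others were picked after their values were seen. The members and lists, drawn from general knowledge, were chosen with earlier results of these data known. Alternatives were other gene summaries, normalizations, filters on dim genes and probe sets, trend and robust options, array weights, a fold of at least 1.5, a block on replicate number, the methods' t-test, subunits by structure and leaving out each array, with those for the other lists and genes added after seeing the data.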

Additional observations from a re-analysis of the deposited data

How the results depend on the processing

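MRPS33 and MRPL38 were called with array weights, with genes above background only and with a fold of at least 1.5. Trend and robust options in limma added MRPL20 (adjusted p = 0.0129). Of all genes tested, 59 were lower with array weights, 139 with genes above background only and 326 with trend and robust options. By gene summary, 0 members were lower with the mean, the median or the second brightest probe set, which called 1 higher (MRPS23). Of 22260, 22260 and 19654 genes, 17, 2 and 5 were lower with these 3 summaries, and the second brightest called 105 higher. At an unadjusted p under 0.05 in limma, 30, 24 and 18 members were lower (beside 12.3%, 8.14% and 6.73% of all genes). With the median of probe sets above background 1 member was called lower (MRPS12), beside 107 of 16006 genes. MRPS33 alone was lower (1) with quantile, cyclic loess and median centring, where MRPL38 missed (limma adjusted p from 0.0541 to 0.0583). Of all genes, 33, 37 and 40 were lower with these. With the replicate block in limma 0 members passed (20 were lower at an unadjusted p under 0.05, beside 6.97% of all genes), 4 of all genes were lower and 154 higher, beside 52 and 388 without it, and same-numbered samples shared little (correlations of deviations 0.0691, 0.00751 and 0.00761), with control replicate 2 closest to transfer replicate 3. The methods' t-test gave 17 lower and 0 higher at its own threshold, beside 7.53% and 9.49% of all genes, and 0 after Benjamini-Hochberg adjustment. Over the fits with 1 array left out, 0 to 2 members were lower, MRPS33 passing in 1 and MRPL38 in 0 of 6. Of all genes, 4, 1 and 4 were lower without control replicates 1, 2 and 3. Without transfer replicates 1, 2 and 3 these were 60, 13 and 21, beside 52 with all arrays. Fewer genes of the whole table were thus called in most of these fits too. The median of all members was −0.27 with the median of probe sets above background and −0.091 after cyclic loess, and that of the large subunit −0.15 after cyclic loess and −0.34 to −0.18 with 1 array left out. For the small subunit it was −0.26 with the median of probe sets, −0.25 with those above background and with the second brightest, and −0.035 after cyclic loess. The gap between the subunits, −0.11, was −0.061 with the mean, 0.028 with the median, −0.015 with the median above background, −0.0016 with the second brightest probe set, and −0.17 to −0.043 with 1 array left out. The order of the subunits thus rested on the choice of probe set, and the cause was not tested. Of single probe sets, trend and robust options called 2 higher, and the filter on background 1 lower and 2 higher. The lower one, of MRPS12, met that filter through its controls only.

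Some named members changed sign, most of them with a small or positive difference, and MRPL48 from −0.67. With the mean of probe sets MRPL55 was −0.063, MRPL10 −0.29, MRPL17 −0.19 and MRPS30 −0.055, and with the median MRPL55 was −0.13, MRPL42 −0.089, MRPL17 −0.21, MRPL30 −0.23 and MRPS30 −0.26. With the median above background MRPL10 was −0.092, MRPL17 −0.30 and MRPS30 −0.075, and with the second brightest probe set MRPL48 was 0.17, MRPL55 −0.12, MRPL10 −0.58, MRPL17 −0.47, MRPL30 −0.23 and MRPS27 0.41. MRPL34 was 0.0089 after quantile and 0.031 after cyclic loess normalization, and MRPS27 0.0035 after cyclic loess. With 1 array left out MRPS30 ranged from −0.0052 to 0.092, MRPL30 from −0.18 to 0.48, MRPS12 from −0.28 to 0.087 and MRPS27 from −0.16 to 0.035. MRPL58 was 0.036, 0.057 and 0.0078 after quantile, cyclic loess and median centring, and −0.15 to 0.071 with 1 array left out. TSFM was −0.17 with the mean, −0.46 with the median and −0.29 with the median above background, RPL31 was −0.40 and −0.17 with those medians, METTL15 −0.00039 with the median, and FCER1G −0.47 with the second brightest probe set.

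The medians of the other lists were recomputed in the same way after seeing the data. That of the translation factors, −0.068, was −0.13 with the mean, −0.24 with the median, −0.22 with the median above background, −0.0022 after quantile and 0.021 after cyclic loess normalization. It was −0.11 to 0.0043 with 1 array left out. That of the assembly factors, −0.27, was −0.21 with the median above background, −0.15 with the second brightest probe set, −0.19 after quantile and −0.18 after cyclic loess normalization, and −0.30 to −0.19 with 1 array left out. That of the 6 proteins with other symbols, −0.10, was −0.24 with the mean, −0.23 with the median, −0.21 with the second brightest probe set, −0.035 after quantile and −0.013 after cyclic loess normalization, and −0.14 to −0.011 with 1 array left out.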
